A study of Homo sapiens with 4 samples.

Results

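The genes described here are 10 Wnt ligands and membrane receptors: the ligands WNT3 and WNT7B, the Frizzled receptors FZD2, FZD6 and FZD8, the co-receptors LRP5 and LRP6, the R-spondin receptor LGR4, and the membrane ubiquitin ligases RNF43 and ZNRF3. They were matched by gene name in the table of RNA levels, where they are 10 of 28283 genes, and in both lists of m6A peaks. All samples came from A549, an established human lung adenocarcinoma cell line. The cells carried a control vector (shNC, PLKO_1 by the source names) or a lentiviral shRNA against YTHDF2 (shY2-2), a cytoplasmic reader of N6-methyladenosine (m6A) in RNA. The methods describe stable knockdown by infection and puromycin selection and do not say whether cells were cloned. For both conditions poly(A) RNA was fragmented, and 1 library was made of the fragments before (input) and 1 after (IP) precipitation by an m6A antibody. With 4 libraries and 1 of each kind per condition, differences between the conditions could not be tested.

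Wnt ligands are lipid-modified secreted proteins that bring a Frizzled receptor and an LRP co-receptor together at the cell surface, which slows the breakdown of β-catenin in the cell. RNF43 and ZNRF3 mark Frizzled receptors for removal from the membrane, and R-spondins bound to LGR4 draw these ligases away, so that more Frizzled stays at the surface. RNF43 and ZNRF3 are themselves targets of β-catenin signaling in many epithelia, and the pathway is often active in epithelial tumors. The comparison asks how the RNA level and the m6A peaks of these genes differed between the control and YTHDF2-knockdown cells. In bulk RNA, fewer cells with a transcript and less of it per cell cannot be told apart.

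RNA levels are FPKM values, fragments scaled to exon length and to the mapped fragments of the library, so levels can be set side by side between genes. The number of fragments behind them is unknown, and no interval can be given. YTHDF2, the targeted gene, had an FPKM of 3.56 in shNC and 1.02 in shY2-2. All 8 epithelial and A549 marker genes examined were above an FPKM of 1 in both libraries, with a summed FPKM of 3590 in shNC and 3620 in shY2-2. Of these, 6 were lower in shY2-2, among them KRT19 (25.9 and 12.9) and CDH1 (9.99 and 5.28), and the part of this difference in the results below was not tested. Of 4 markers of alveolar type II cells, ABCA3 was at 4.81 and 3.62, SFTPC was under 0.1 in both, and NKX2-1 and SFTPB had no row to match. Of 9 leukocyte, endothelial and fibroblast markers, CD68 (12.2 and 10.2) and COL1A1 (0.834 and 1.64) reached an FPKM of 1 in a library.

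Sites of m6A are often found at the letters GGAC, where the A carries the methyl group. The sequences below are the reference sequence of GRCh38 around GGAC in the part of a transcript where a peak of the shNC list and a peak of the shY2-2 list overlap. They are shown as places to look within stretches that both lists hold. They are written 5′ to 3′ along the transcript, with GGACT in capitals where the motif is followed by T and otherwise GGAC in capitals. One was taken for each gene shown. It was GGACT where the overlap held one, otherwise the GGAC nearest to the center of the overlap. That overlap was at the stop codon in FZD2 and LGR4 and had the lowest false discovery rate (FDR) in WNT7B. These 7 were picked after the peak values were known. FZD6 is not shown, although 1 of its overlaps holds GGACT and the rule would have included it. The overlap of ZNRF3 holds no GGAC. The FZD8 and LRP6 sequences lie in peaks with an FDR over 0.05 in both lists. Those of FZD2 (FDR 0.0794) and RNF43 (FDR 0.055) lie in peaks over 0.05 in the shY2-2 list alone.
FZD8, exon 1, coding sequence, chr10:35641125-35641144, minus strand: tgcctagaGGACTacaagaa
LRP5, exon 23, coding sequence, chr11:68449050-68449069, plus strand: ccctgcacGGACTcatcctg
LRP6, exon 2, coding sequence, chr12:12244532-12244551, minus strand: gctgcggtGGACTttgtgtt
RNF43, exon 2, coding sequence, chr17:58415482-58415501, minus strand: gacgcacaGGACTggtactg
LGR4, exon 18, coding sequence, chr11:27367933-27367952, minus strand: aggcctgtGGACgagcctgc
FZD2, exon 1, 3′-UTR, chr17:44559380-44559399, plus strand: cgtgtgagGGACgcccccag
WNT7B, exon 4, 3′-UTR, chr22:45922455-45922474, minus strand: ggcggcatGGACacagaaaa
The A of GGAC was nucleotide 296 of the coding sequence in FZD8, 170 in LRP6, 87 in RNF43, 2781 in LGR4 and 4838 in LRP5. The LRP5 site lies 10 nt and the LGR4 site 75 nt before the end of the stop codon, while the FZD2 site lies 4 nt and the WNT7B site 392 nt after it. The letters GGAC, read on the transcript strand alone, occur in 45.3% of all 5363 overlapping parts of 100 to 199 nt and in 61.7% of the 4754 of 200 to 299 nt, and GGACT, which contains GGAC, in 16.6% and 24.8%. For the 7137 parts of 300 nt or more, the class of the RNF43 and LGR4 overlaps, the shares were 79.4% and 43.7%. These matches describe the sequence and do not place a methylated base.

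The ligands differed widely in level. WNT7B (ENSG00000188064, chromosome 22, 45920362 to 45977129, minus strand) was the highest of the 10 genes, with an FPKM of 41.9 in shNC and 41.1 in shY2-2. It was nearly equal in both libraries, with a log2 ratio of -0.03. Ratios here are the FPKM of shY2-2 over that of shNC, each with a pseudocount of 1 added, on the log2 scale, so that differences of genes with low levels are understated. WNT3 (ENSG00000108379, chromosome 17, 46762506 to 46833154, minus strand) had an FPKM of 3.46 in shNC and 2.18 in shY2-2, which is -0.49 on the log2 scale and percentile 12.0 of the 12268 genes kept, those that reached an FPKM of 1 in either input library. The FPKM of WNT7B was 12.1 times that of WNT3 in shNC and 18.9 times in shY2-2.

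**Figure D1:**
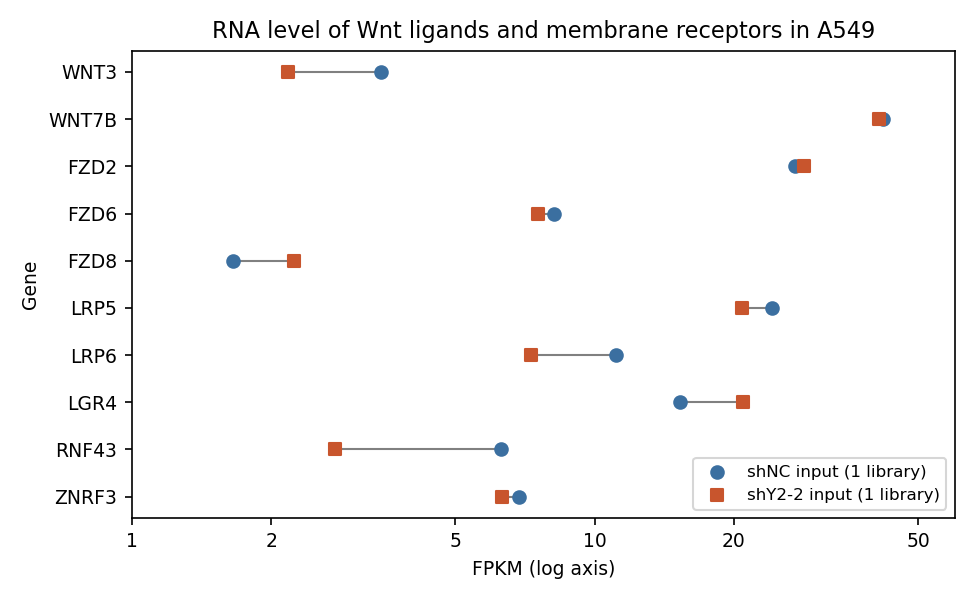
FPKM (log axis) of the 10 genes in the shNC input library (circles) and the shY2-2 input library (squares), 1 library each, joined by a line. The longest line is that of RNF43 (6.29 and 2.75), followed by WNT3 and LRP6, while the points of WNT7B nearly coincide.

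Among the Frizzled receptors, which bind Wnt through a cysteine-rich extracellular domain, FZD2 was the highest. FZD2 (ENSG00000180340, chromosome 17, 44557459 to 44559570, plus strand) had an FPKM of 27.1 in shNC and 28.4 in shY2-2 (log2 ratio 0.06). FZD6 (ENSG00000164930), on chromosome 8, had 8.17 and 7.54 (log2 ratio -0.10). Both lay near the middle of all genes, at percentiles 57.1 and 39.1. FZD8 (ENSG00000177283, chromosome 10, 35638249 to 35642278, minus strand) was the lowest of the 10 genes, with an FPKM of 1.65 in shNC and 2.24 in shY2-2. It was 1.36-fold higher in shY2-2, with a log2 ratio of 0.29. The order FZD2, FZD6, FZD8 was the same in both libraries.

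Both LRP co-receptors, single-pass proteins whose intracellular tail recruits AXIN1 once a ligand is bound, were lower in shY2-2. LRP5 (ENSG00000162337, chromosome 11, 68312609 to 68449275, plus strand) had an FPKM of 24.2 in shNC and 20.8 in shY2-2, a log2 ratio of -0.21. LRP6 (ENSG00000070018, chromosome 12, 12116025 to 12267012, minus strand) had 11.1 and 7.27, which is -0.55 on the log2 scale and percentile 9.75 of all genes. LRP5 was thus 2.18 times the level of LRP6 in shNC and 2.86 times in shY2-2.

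LGR4 was higher in shY2-2 and RNF43, a ligase it opposes, was lower. LGR4 (ENSG00000205213, chromosome 11, 27365961 to 27472775, minus strand) had an FPKM of 15.3 in shNC and 20.9 in shY2-2. Its log2 ratio was 0.43, the highest of the 10 (percentile 88.5). RNF43 (ENSG00000108375, chromosome 17, 58352500 to 58417595, minus strand) had an FPKM of 6.29 in shNC and 2.75 in shY2-2, 0.437 times the control level. Its log2 ratio was -0.96, the lowest of the 10 (percentile 2.47). Its homolog ZNRF3 (ENSG00000183579, chromosome 22, 28883592 to 29057487, plus strand) had 6.87 and 6.31, a log2 ratio of -0.11. The ligases were therefore at similar levels in shNC, where ZNRF3 was 1.09 times RNF43, and apart in shY2-2, where it was 2.30 times RNF43. The reference transcript of RNF43 shares 71.0% of its 4522 nt with another GENCODE gene model on the same strand (ENSG00000285897), which has no row by its ID in the FPKM table. How the counting treated the shared exons is not known, and the RNF43 value is uncertain in that respect. The reference transcripts of the other 9 genes share at most 2.0% with a gene on the same strand.

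Of the 10 genes, 7 were lower and 3 higher in shY2-2, with a median log2 ratio of -0.10, while 49.7% of all 12268 genes were lower and their median was 0.00. No member passed a log2 ratio of 1 in size, a limit passed by 3.12% of all genes, 0.986% upward and 2.14% downward. At a limit of 1.5-fold on the same ratios, RNF43 alone passed, against 14.3% of all genes, 5.38% upward and 8.92% downward. Without a pseudocount, WNT3 (0.629 times the control level) and LRP6 (0.653 times) also differed by more than 1.5-fold. The share of all genes past 1.5-fold without a pseudocount was not computed. RNF43 came closest to the log2 limit of 1. With a pseudocount of 0.1 in place of 1, its log2 ratio was -1.17, past that limit, as for 7.47% of all genes. For genes with a mean FPKM under 5, a class that holds WNT3, FZD8 and RNF43, the central 90% of log2 ratios ran from -0.75 to 0.59. For genes from 5 to 10, the class of LRP6, FZD6 and ZNRF3, it ran from -0.79 to 0.59. RNF43 lay outside this range, and WNT3 and LRP6 lay inside it. LGR4 lay inside the range of genes from 10 to 20, which was -0.76 to 0.62.

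**Figure D2:**
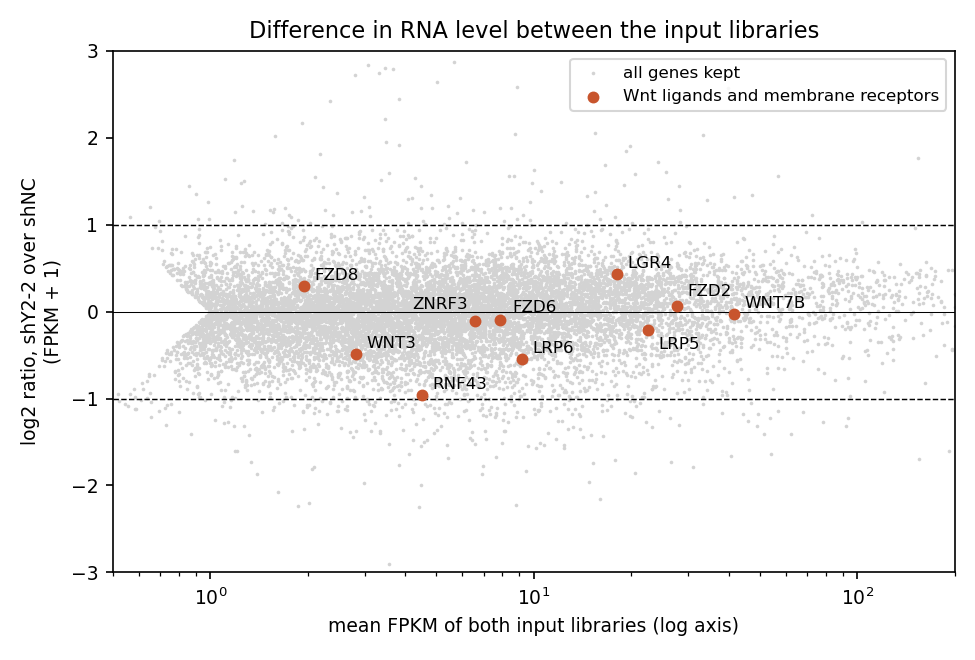
Log2 ratio of FPKM + 1, shY2-2 over shNC, against the mean FPKM of both input libraries (log axis) for all genes kept (grey) and the 10 Wnt ligands and membrane receptors (orange); dashed lines mark 1 and -1, and 165 of the 12268 genes lie outside the axes. RNF43 at -0.96 lies at the lower edge of the cloud, and the other 9 lie within it.

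The rest of the pathway was taken from a list of 64 genes in 3 groups, of which 27 were kept by the same FPKM limit. Of these 27, 14 were higher and 13 lower in shY2-2 (median log2 ratio 0.06), and none passed a log2 ratio of 1 in size. With a pseudocount of 0.1, 2 genes were above 1 and 3 below -1. Among other secreted factors, 8 of 35 were kept, 3 higher and 5 lower. DKK1, an antagonist that binds LRP5 and LRP6, was the most abundant, with an FPKM of 207 in shNC and 117 in shY2-2 (log2 ratio -0.82). Its relative DKK3 (2.49 and 1.05, log2 ratio -0.76) and the decoy receptor SFRP4 (2.14 and 0.875, log2 ratio -0.74) were lower as well. RSPO3, a ligand of LGR4, had an FPKM of 65.6 in shNC and 88.1 in shY2-2 (log2 ratio 0.42), and PORCN, which attaches the lipid to Wnt proteins, had 3.37 and 4.34 (log2 ratio 0.29). WLS, the carrier of Wnt proteins to the surface, had 1.37 and 1.51 (log2 ratio 0.08).

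Among other receptors, 13 of 17 were kept, 8 higher and 5 lower. FZD9 (0.496 and 1.65, log2 ratio 0.82), KREMEN1, a receptor for DKK1 (1.70 and 3.57, log2 ratio 0.76), and ADGRA2 (1.01 and 1.60, log2 ratio 0.37), a receptor component for WNT7 ligands, had the highest ratios. LGR6, a relative of LGR4, had an FPKM of 2.15 in shNC and 0.673 in shY2-2, the lowest ratio at -0.91. The receptor tyrosine kinase ROR1, which binds Wnt ligands (3.62 and 2.29, log2 ratio -0.49) and FZD5 (4.07 and 2.96, log2 ratio -0.36) followed. FZD2 was therefore 27.1 in shNC against at most 4.07 for any Frizzled outside the 10 genes. Of 12 feedback and target genes of β-catenin signaling, 6 were kept, with 3 higher and 3 lower. AXIN2, a widely used readout of the pathway, had 5.28 in shNC and 4.76 in shY2-2 (log2 ratio -0.12). SOX4 (6.86 and 3.49, log2 ratio -0.81) and the cyclin gene CCND1 (70.9 and 50.7, log2 ratio -0.47) were lower, whereas NKD2 (1.53 and 2.13, log2 ratio 0.31), BAMBI (21.3 and 22.7, log2 ratio 0.09) and MYC (15.0 and 15.7, log2 ratio 0.06) were higher.

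**Figure D3:**
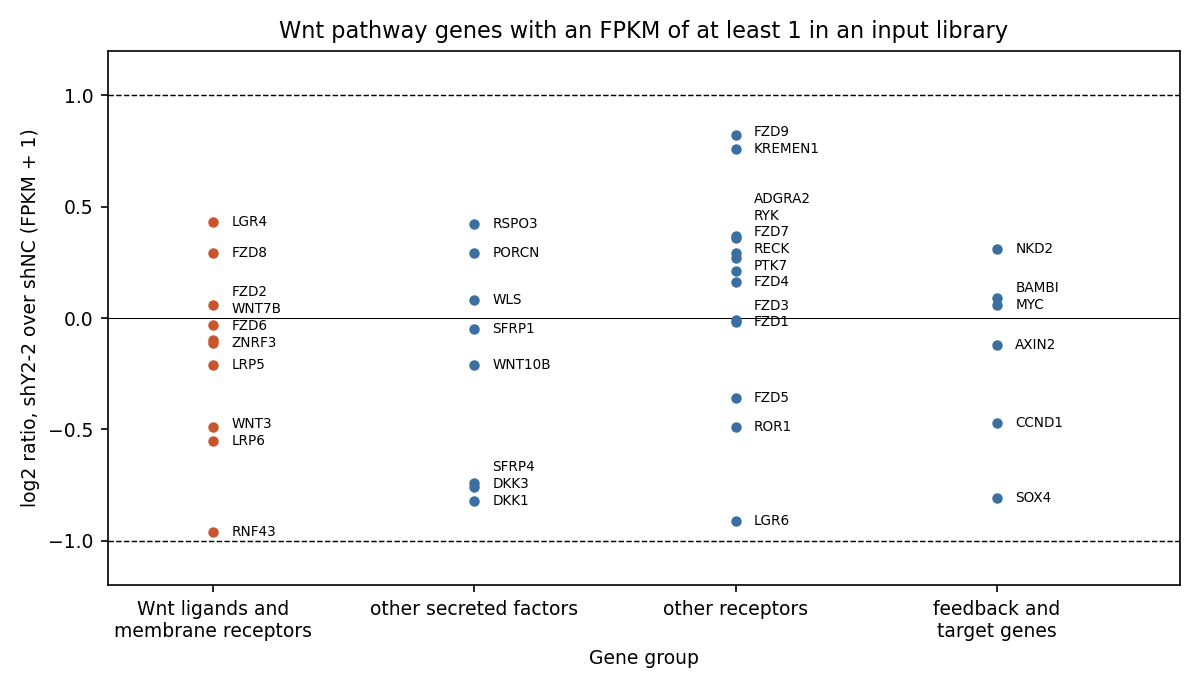
Log2 ratio of FPKM + 1, shY2-2 over shNC, of the 10 Wnt ligands and membrane receptors (orange) and the 27 other pathway genes kept (blue), each point 1 gene named beside it. All 37 points lie between the dashed lines at 1 and -1, with RNF43 (-0.96) and LGR6 (-0.91) lowest and FZD9 (0.82) highest.

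The authors called m6A peaks for shNC and for shY2-2, each from a single IP and a single input library, and no listed p-value exceeds 0.049. The fold enrichment (IP over input) and the FDR of each peak are the authors' values, and the reads behind them are unknown. The 10 genes held 37 distinct peaks for shNC and 26 for shY2-2. All 10 had a peak in both lists, as the choice of the genes required, while 72.8% of all genes kept did. Peaks per gene were 3.70 and 2.60, against 2.92 and 2.56 over the 8916 genes kept that had a peak in both lists, as the members do by the way they were chosen. The median fold enrichment of the member peaks was 1.89 in shNC and 1.85 in shY2-2, below the medians of 2.17 and 2.26 of the whole lists.

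An FDR of at most 0.05 held for 21 of 37 peaks in shNC (56.8%) and 8 of 26 in shY2-2 (30.8%). Over the whole lists it held for 56.4% and 52.1%, so that the share of the member peaks was near the background in shNC and below it in shY2-2. All 10 genes (100%) had such a peak in shNC, where 84.2% of the 8916 genes did. In shY2-2, 5 genes (50.0%) had one, namely WNT7B, FZD2, FZD6, LRP5 and LGR4, where 76.0% of the 8916 genes did. Of the 7510 of these genes with such a peak in shNC, 83.4% also had one in shY2-2. WNT3, FZD8, LRP6, RNF43 and ZNRF3 had none in shY2-2. These were the 5 genes with the lowest FPKM in shY2-2, from 2.18 (WNT3) to 7.27 (LRP6), with FZD6 next at 7.54. They include the 3 genes with the lowest log2 ratios of RNA, but also ZNRF3 (-0.11) and FZD8, which was higher in shY2-2 (0.29). The part of the RNA level in the FDR of the peaks was not tested.

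By the authors' annotation, 18 of 37 peaks in shNC (48.6%) and 12 of 26 in shY2-2 (46.2%) lay in 3′-UTRs, below the 59.1% and 59.5% of the whole lists. Mapped onto the canonical transcripts of GENCODE release 44, 16 shNC peaks and 10 shY2-2 peaks touched a 3′-UTR. Some peaks annotated to 3′-UTRs lay in the coding sequence of these transcripts, among them both FZD6 peaks of shY2-2. On the same transcripts, 7 shNC peaks and 5 shY2-2 peaks came within 100 nt of the end of the stop codon. The start codon had 4 and 3 within the same distance.

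**Figure D4:**
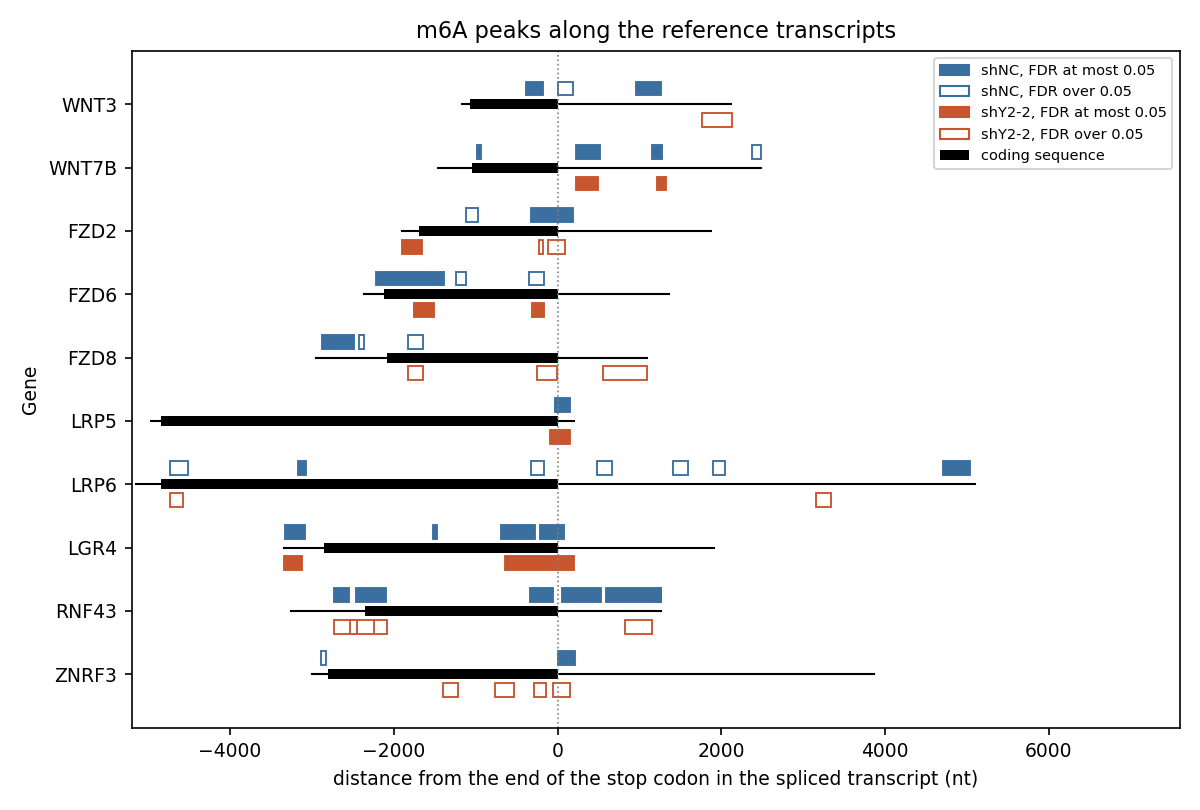
Peaks of the shNC list (blue, above each line) and of the shY2-2 list (orange, below) along the canonical spliced transcript of each gene, in nt from the end of the stop codon, with the coding sequence as a thick bar; filled peaks have an FDR of at most 0.05. Only the parts of peaks within the transcript are drawn, which leaves out 3 RNF43 peaks. FZD2 as deposited ends 184 nt after the stop codon, so the rest of its drawn 3′-UTR of 1876 nt lies outside the deposited gene. LRP5, WNT7B, FZD6 and LGR4 have filled peaks that overlap between the lists, while WNT7B and LGR4 each also have a filled shNC peak without a counterpart. The filled shNC peaks of WNT3, FZD2, FZD8, LRP6, RNF43 and ZNRF3 meet no filled peak in shY2-2.

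The WNT7B peaks found in both conditions were in the 3′-UTR. The strongest by FDR was 300 nt long in shNC (chromosome 22, 45922334 to 45922633, fold enrichment 1.70, FDR 3.98e-17) and 270 nt in shY2-2 (45922364 to 45922633, fold enrichment 1.61, FDR 2.00e-14). It holds the WNT7B sequence printed above and had the lowest FDR of the member peaks in each list. A second 3′-UTR peak had a fold enrichment of 1.25 in shNC (FDR 0.00282) and 1.26 in shY2-2 (FDR 0.00479). WNT3 had 3 peaks in shNC, in the coding part of the transcript (fold enrichment 2.32, FDR 0.00234), just after the stop codon (1.86, FDR 0.0759) and centered 1108 nt after it (2.13, FDR 0.00347). The single WNT3 peak in shY2-2 was at the 3′ end of the transcript and met none of them (fold enrichment 6.94, FDR 0.309). WNT3 was the only one of the 10 genes with no overlap between the lists.

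FZD2, a gene of 1 exon, had a peak of 506 nt across the stop codon in shNC (44559065 to 44559570, fold enrichment 1.68, FDR 0.000126). This peak ends where the deposited gene ends, 184 nt after the stop codon. In shY2-2 the same stretch held peaks of 60 nt (fold enrichment 1.27, FDR 0.224) and 209 nt (1.41, FDR 0.0794). A peak of 239 nt at the start codon, with a fold enrichment of 2.17 and an FDR of 0.00468, was found in shY2-2 and met no FZD2 peak of the shNC list. FZD6 had its broadest peak in shNC over the start of the coding sequence, 957 nt in 4 blocks with a fold enrichment of 2.81 (FDR 9.33e-07). In shY2-2 it was met by a peak of 240 nt with a fold enrichment of 1.71 (FDR 0.0263). Near the end of the coding sequence, an FZD6 peak had a fold enrichment of 1.25 in shNC (FDR 0.145) and 1.53 in shY2-2 (FDR 0.000955). For FZD8, a 5′-UTR peak of 389 nt with a fold enrichment of 8.01 (FDR 0.00617) was found in shNC. The FZD8 peaks in shY2-2 had FDRs from 0.122 to 0.308, and 1 of them, at 35640995 to 35641174, was found with the same ends in both lists.

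LRP5 had 1 peak in each list, both across the stop codon in exon 23 of 23, where the LRP5 sequence printed above lies. The peak ran from 68449036 to 68449215 on chromosome 11 in shNC, where its fold enrichment was 11.4 (FDR 0.0214, percentile 98.2 of the list). In shY2-2 it ran from 68448976 to 68449215, and the fold enrichment was 3.66 (FDR 0.000363, percentile 75.0). The fold enrichment was thus lower in shY2-2 although the FDR was smaller. LRP6, whose reference 3′-UTR of 5101 nt is the longest of the 10, had 7 peaks in shNC, with fold enrichments from 1.23 to 2.71. The highest of them lay near the 3′ end of the transcript (12116085 to 12116414, FDR 0.000427) and met no LRP6 peak in shY2-2. The shY2-2 list held 2 LRP6 peaks. The peak in exon 2, where the LRP6 sequence lies, was found in both lists (fold enrichment 1.53, FDR 0.0794 in shNC, and 1.48, FDR 0.269 in shY2-2).

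LGR4 had 4 peaks in shNC, all with an FDR of at most 0.05. The 5′-UTR peak had a fold enrichment of 1.92 (FDR 7.94e-12) in shNC and 1.41 (FDR 0.0339) in shY2-2. At the end of the coding sequence, shNC held peaks of 419 nt (fold enrichment 1.32, FDR 4.07e-05) and 300 nt (1.35, FDR 5.01e-05), and shY2-2 held 1 peak of 839 nt that met both (27367665 to 27368503, fold enrichment 1.82, FDR 2.24e-10). The overlapping LGR4 peaks thus had a lower fold enrichment in shY2-2 in the 5′-UTR (log2 ratio -0.45). It was higher in both pairs at the end of the coding sequence. The pair with the 419 nt peak (0.46) lies before the stop codon, and that with the 300 nt peak (0.43) crosses it. Both hold the same shY2-2 peak. All these ratios lie inside the central 90% of all pairs given below. A further shY2-2 peak at the 5′ end, with a fold enrichment of 6.94 and an FDR of 0.979, met no LGR4 peak of the shNC list.

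RNF43 had 8 peaks in shNC, of which 5 had an FDR of at most 0.05, and 5 in shY2-2, of which none did. These counts include 2 shNC peaks and 1 shY2-2 peak that lie wholly outside the canonical transcript. The 2 shNC peaks also overlap each other. How the calling treated the exons shared with ENSG00000285897 is not known. The 3′-UTR peak of 779 nt in shNC (58353576 to 58354354, fold enrichment 6.87, FDR 1.26e-05) contained a shY2-2 peak of 329 nt with a fold enrichment of 2.31 (FDR 0.109). In the 5′-UTR and around the start codon, shNC peaks of 240 nt (1.87, FDR 0.0269) and 420 nt (1.89, FDR 0.0055) were both met by a shY2-2 peak of 838 nt in 3 blocks (2.24, FDR 0.055). ZNRF3 had 2 peaks in shNC and 4 in shY2-2. The peak at the stop codon was in both lists (1.95, FDR 0.017 in shNC, and 1.54, FDR 0.0851 in shY2-2), and the other 3 shY2-2 peaks lay in the coding part of the transcript with FDRs from 0.0513 to 0.334.

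The number of peaks was lower in shY2-2 for 6 genes, higher for FZD2 and ZNRF3 and equal for FZD8 and LRP5. Of the 8916 genes, 40.9% had fewer in shY2-2 and 24.3% more. LRP6 (7 and 2), RNF43 (8 and 5) and WNT3 (3 and 1), with the lowest log2 ratios of RNA, were among the 6, and so were WNT7B (4 and 2) and FZD6 (3 and 2), with nearly equal RNA, and LGR4 (4 and 3), with the highest ratio. Over the 1318 genes with a log2 ratio of at most -0.4, the mean number of peaks was 3.03 in shNC and 2.40 in shY2-2, and 48.7% had fewer in shY2-2. Between -0.4 and 0.4, where 6 of the 10 genes lie, it was 2.96 and 2.62, and 41.0% of 6460 genes had fewer. Over the 1138 genes with a ratio of at least 0.4, it was 2.59 and 2.46, and 31.5% had fewer. The part of the RNA level in the number of member peaks was not tested.

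Peaks were taken to meet where they shared 1 bp or more of exonic sequence of one gene. By this rule 16 of the 37 shNC peaks (43.2%) met a shY2-2 peak, against 55.3% of the whole list. Of the 26 shY2-2 peaks, 16 (61.5%) met a shNC peak, against 64.7%. Overlapping peaks were found for 9 of the 10 genes, and for 88.7% of all genes kept with a peak in both lists. These peaks formed 19 pairs, and the log2 ratio of their fold enrichments, shY2-2 over shNC, was below 0 in 11 and above 0 in 8, with a median of -0.08. Over all 21153 pairs the median was -0.08 and the central 90% ran from -1.19 to 1.02. Of the 19 pairs, 3 of RNF43 share at most 6 nt, and over the 16 pairs that share at least 50% of the shorter peak the median was -0.17, against -0.09 over all 19198 such pairs. The pairs of LRP5 (-1.64) and of the RNF43 3′-UTR (-1.57) lay below this range, at percentiles 2.24 and 2.51, and no member pair lay above it.

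**Figure D5:**
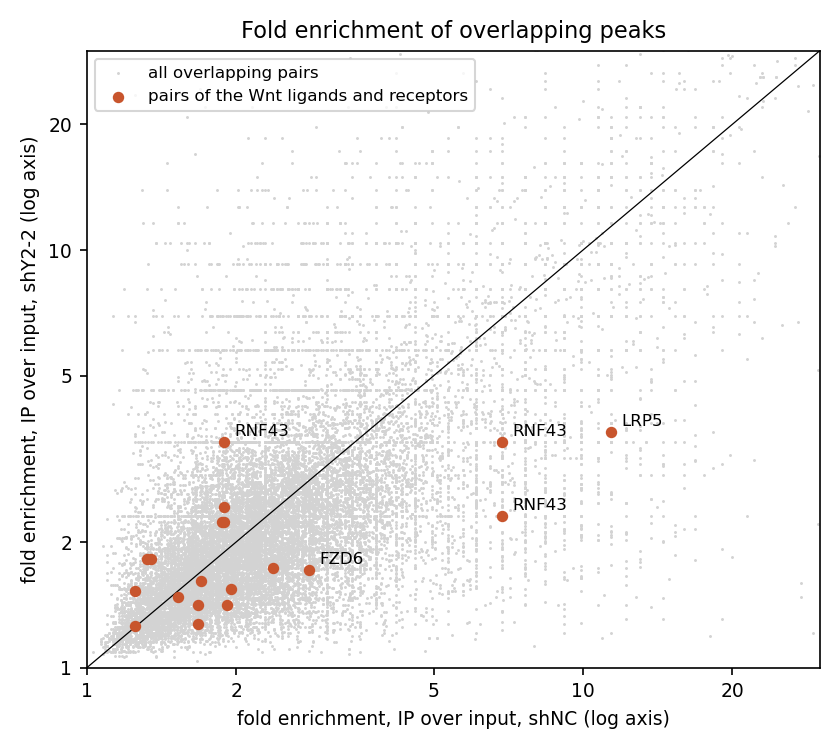
Fold enrichment, IP over input, of overlapping peaks of the same gene in shNC and shY2-2 (both axes log), for all pairs (grey, 128 of 21153 outside the axes) and the 19 pairs of the 10 genes (orange), with equal values on the line. LRP5 (11.4 and 3.66) and an RNF43 pair (6.87 and 2.31) lie farthest below the line, and rows and columns of grey points mark fold enrichments that many peaks share.

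Some fold enrichments recurred across the lists. The value 6.94 was given to 1376 peaks of the shY2-2 list, with a median FDR of 0.979, and among them were the WNT3 peak and an LGR4 peak that lies mostly outside the canonical transcript (FDR 0.979). In the shNC list, 6.87 was given to 626 peaks with a median FDR of 0.369, 2 of them in RNF43, and in the shY2-2 list 2.31 was given to 743 peaks, so both values of the RNF43 3′-UTR pair were common ones. The shNC value of LRP5, 11.4, was given to 109 peaks, and its shY2-2 value, 3.66, to 27. The part of this recurrence in the differences between pairs was not tested.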

How the data were processed

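RNA-seq and m6A-seq of 4 A549 libraries were analyzed, grouped by the sample titles. Per the labels and the methods, the authors trimmed reads with fastp and used HISAT2 to map them to GRCh38. The deposited FPKM values come from StringTie and the input libraries. The authors called peaks with exomePeak on IP against input of each condition and annotated them with ChIPseeker. Peaks are described by the deposited p-values, by the log10 scores deposited for p and FDR, and by the fold enrichment the authors deposited, a ratio of IP over input. Versions, the annotation release and the calling limit are not given in the sources used here, and depth is unknown.

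The 12268 genes that reached an FPKM of 1 in either input library were kept, and ratios used a pseudocount of 1. As FPKM are not counts and each group has 1 library, no test was run. Rows that repeat a peak were counted once. Overlap needed 1 bp of exonic sequence of the same gene and strand. Transcript positions and sequences come from GENCODE release 44 on GRCh38.

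Genes named are the 10 members, YTHDF2, the cell markers, and the 3 highest and 3 lowest log2 ratios of each pathway group. The genes named among the other observations lie outside this rule. The members and lists were chosen with earlier results of these data known. Alternatives were another pseudocount, other FPKM limits, centering, stricter peak limits and another overlap rule. Steps were tested on simulated data. Python 3.11.15, NumPy 2.4.6, pandas 2.3.3, pysam 0.24.0 and matplotlib 3.10.9 were used.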

Additional observations from a re-analysis of the deposited data

How the results depend on the processing

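The log2 ratios of single genes were recomputed 20 times, under a pseudocount of 0.1 and under centering on the median, and 18 values moved. Their direction could not have changed. A pseudocount leaves the sign as it is, and the median of 0.01 is smaller than any ratio of the 10 genes. The median over the 10 genes was -0.12 with a pseudocount of 0.1 and -0.11 after centering. RNF43 was the 1 gene past the limit with a pseudocount of 0.1. With a pseudocount of 1, it was also the 1 gene past a limit of 1.5-fold, which 14.3% of all genes passed. With a pseudocount of 0.1, 2 other pathway genes were above a log2 ratio of 1 (FZD9 and KREMEN1) and 3 below -1 (LGR6, SFRP4 and DKK3). The member peaks numbered 21 in shNC and 8 in shY2-2 with an FDR of at most 0.05, 8 and 4 with an FDR of at most 0.001, and 16 and 12 with a fold enrichment of at least 2. With an FDR of at most 0.05 in both lists, 7 shNC peaks met 6 shY2-2 peaks. An overlap of at least 50% of the shorter peak moved the median log2 ratio of fold enrichments to -0.17. No result reversed. No paired analysis was possible because each group has 1 library, and for the same reason no library could be left out. Depth behind FPKM and peaks is unknown and limits every comparison.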

Other observations

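Many ligands and some receptors of the pathway were below an FPKM of 1 in both input libraries. Of the 35 other secreted factors, 7 had no row to match by symbol and 20 had a row but did not reach an FPKM of 1 in either library, among them WNT5A (0.222 in shNC and 0.0496 in shY2-2), WNT9A (0.446 and 0.664) and NOTUM (0.123 and 0.0901). Of the 17 other receptors, 4 did not reach it, among them LGR5 (0.00928 and 0) and FZD10 (0.0147 and 0). LGR4 was 7.10 times the FPKM of LGR6 in shNC and 31.1 times in shY2-2. Of the β-catenin feedback and target genes, LEF1 (0.0181 and 0.0219), TCF7 (0.619 and 0.525) and SP5 (0.0938 and 0.0282) were under an FPKM of 1 in both libraries. These examples were picked with their values known.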
